A study of Mus musculus with 12 samples.

Results

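The genes described here are 39 genes of the lysosome and of the proton pump that acidifies it, the vacuolar ATPase (V-ATPase), in inflammatory mouse macrophages. They were chosen by name, as a fixed list of lysosomal enzymes, membrane proteins, regulators and pump subunits, out of 27013 genes of the expression table. All 39 were found in that table and all 39 had an adjusted p, as 10778 genes did. By role they are 14 soluble hydrolases, 3 activators and other lumenal proteins, 6 membrane proteins, 2 transcription factors and 14 V-ATPase genes.

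The macrophages came from bone marrow of Ythdf2 cKO mice (a conditional knockout) and of WT mice, all C57BL/6. Cells of both genotypes were cultured for 7 days in 20 ng/ml M-CSF, a macrophage growth factor, and then activated for 24 h with 100 ng/ml LPS and 20 ng/ml IFN-γ to give M1-type macrophages. The series holds 12 libraries, 2 for each of 6 groups. Ythdf2 cKO cells and WT cells each have an input group and an m6A immunoprecipitation group, from RNA cut into fragments of about 100 nucleotides. WT cells also have a YTHDF2 immunoprecipitation group with its own input. The driver of the Cre and the age of the mice are not given in the sources used here, nor is whether the 2 replicates of a group are separate animals or cultures. The p-values may therefore measure technical spread alone. The m6A peaks of the Ythdf2 cKO group were not analysed here.

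Lysosomal hydrolases are made as precursors, carried to the lysosome and activated at the low pH that the V-ATPase keeps up. The pump has a membrane sector, V0, that carries protons, and a cytosolic sector, V1, that splits ATP. In macrophages this compartment digests engulfed material, and the transcription factors TFEB and TFE3 raise the expression of many of its genes through a short DNA element. YTHDF2 binds N6-methyladenosine (m6A) in mRNA and recruits enzymes that shorten the RNA's tail, which speeds its decay.

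The element that TFEB and TFE3 bind is centred on the palindrome TCACGTGA, so the promoters of the members are shown for the sequence feature that some of them share. Promoters from RefSeq (GRCm38.p6, 250 bases before to 50 after a start site) were matched to 32 of the 39 genes. TCACGTGA lay in the promoter of 6 of these 32 (18.8%), against 2.40% of 8365 tested genes with a promoter and 1.12% of all 27025 genes with one. It reads the same on both strands and contains the E-box CACGTG, which 9 of the 32 held (28.1%), against 12.4% of the tested genes. The windows below hold 30 bases each on the strand of the gene, 5′ to 3′, with TCACGTGA in capitals. Ctsa and Gla hold 2 copies each, and the 2 Ctsa windows share bases while their copies do not overlap.
Ctsa, chr2:164833749-164833778, plus strand: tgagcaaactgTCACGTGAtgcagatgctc
Ctsa, chr2:164833766-164833795, plus strand: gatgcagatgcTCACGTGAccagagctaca
Ctsd, chr7:142387908-142387937, minus strand: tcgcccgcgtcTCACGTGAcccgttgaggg
Gla, chrX:134601215-134601244, minus strand: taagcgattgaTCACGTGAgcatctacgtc
Gla, chrX:134601182-134601211, minus strand: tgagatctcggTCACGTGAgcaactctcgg
Mcoln1, chr8:3500462-3500491, plus strand: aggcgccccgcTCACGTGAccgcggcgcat
Atp6v0d1, chr8:105566050-105566079, minus strand: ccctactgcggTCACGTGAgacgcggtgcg
Atp6v1a, chr16:44139373-44139402, minus strand: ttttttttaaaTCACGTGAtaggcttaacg

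The copies begin between 228 bases upstream of the listed start site, in Gla, and the fifth base after it, in Ctsa. That start site of Ctsa is 1 of 2 that RefSeq lists for the gene. In Ctsa and Atp6v1a the start site used is an inner one. Their copies lie downstream of the 5′ end of the gene span, at 164832872 and 44139702, and a promoter window set there would not hold them. A form with 1 changed base, TCACATGA, counted on both strands, lay in 3 of the 32 promoters (9.38%), those of Grn, Atp6v0c and Gla, against 0.992% of tested genes. Of 80 other lysosome genes with a promoter, 7 (8.75%) held TCACGTGA, 7 (8.75%) held TCACATGA and 22 (27.5%) held CACGTG. The members' share was above theirs for TCACGTGA and close to theirs for the other two motifs, and these differences were not tested. A match describes the letters in this window, and no binding of a factor to DNA was measured.

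The comparison of genotypes asks whether loss of YTHDF2 changed the RNA of these genes. The authors deposited a fold change with its standard error for each gene and no value per library, so the values of single replicates cannot be shown. Their table does not say which genotype is the numerator. In the authors' deposited table Ythdf2 itself stood at 1.10 ± 0.16 on the log2 scale (SE; adjusted p 2.06e-09 by their Wald test). Positive values are called the side of Ythdf2. They stand for less RNA in cKO cells if Ythdf2 itself had less there, which the table leaves unstated.

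Of the 39 genes, 1 passed an adjusted p of 0.05, on the side of Ythdf2, and 0 passed on the other side, by the Wald test of the authors' deposited table. Among all tested genes 2.32% passed, 1.76% sharing the sign of Ythdf2 and 0.557% having the other. At an unadjusted p under 0.05 there were 5 positive genes, Gpnmb, Ctsk, Lipa, Psap and Gla, and 0 negative ones. That is 12.8% of the members, against 6.28% of all tested genes on the positive side and 3.71% on the negative. Values leaned to the side of Ythdf2: 30 of 39 were positive (76.9%), with a median of 0.13, against 48.7% and −0.01 over all tested genes. The genes are abundant, and 36 of them lie among the 25% of tested genes with the highest mean count, of which 60.4% were positive, with a median of 0.04. Within that 25%, 27 of the 36 were positive, with a median of 0.09. At an unadjusted p under 0.05, 4 of these 36 were positive (11.1%), against 13.1% of all genes of the most abundant 25%. Of those genes 4.82% passed the adjusted threshold in either direction, against 2.78% of the 36 members. On both counts the members' share was no higher than that of the most abundant 25%. The lean of the list and of abundant genes in general run the same way, and their parts in it were not told apart.

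**Figure D1:**
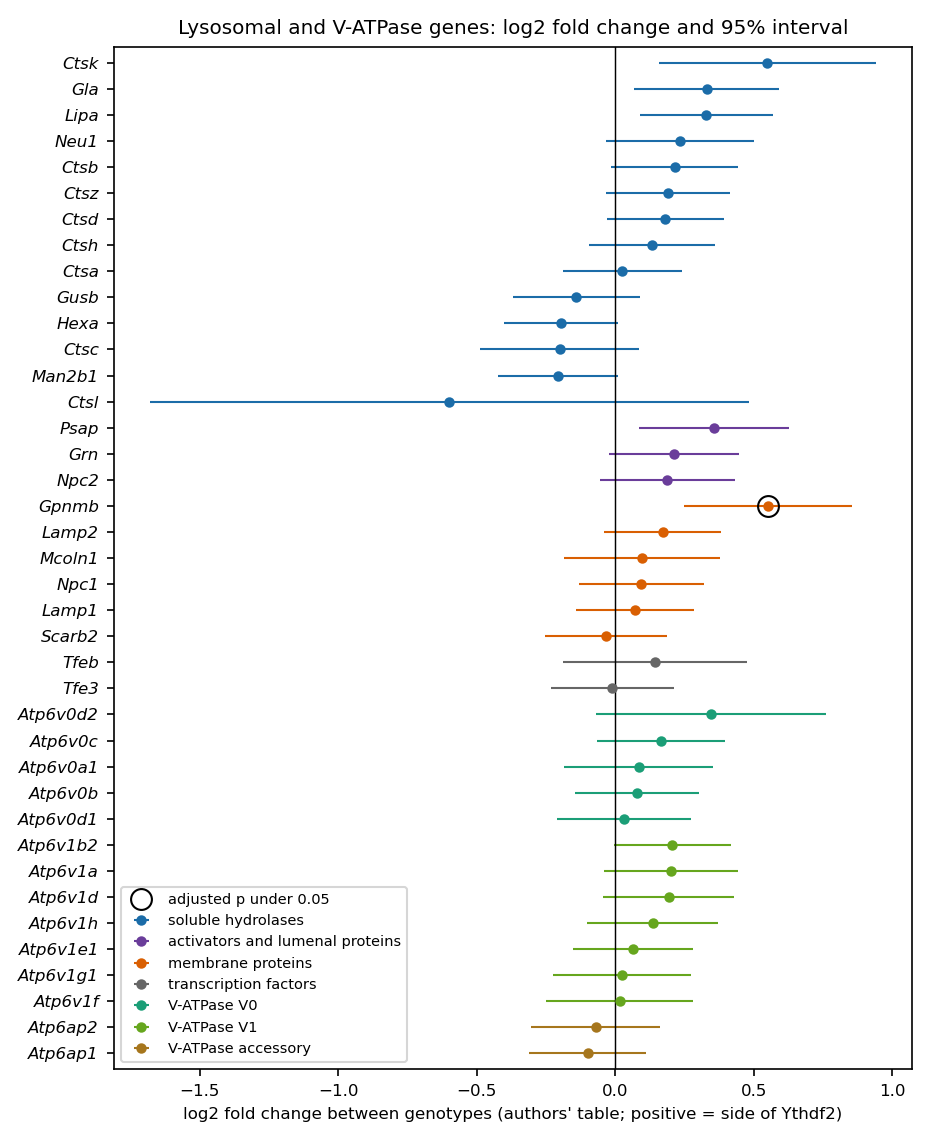
Log2 fold change between genotypes (x axis) of each of the 39 genes (y axis), grouped by role, from the authors' deposited table. Points are the fold changes and bars their 95% intervals; the circled gene, Gpnmb, is the 1 that passed, and 30 points lie right of 0.

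Gpnmb, a glycoprotein of the lysosome and cell surface that macrophages make in large amounts when lysosomes are loaded (chromosome 6, 49036518 to 49058182, mm10), was the member that passed. The authors' deposited table gives it a log2 value of 0.55 ± 0.15 (95% interval 0.25 to 0.86), a mean normalized count of 291453 and an adjusted p of 0.0212 (Wald test). The call was lost when p-values were adjusted over every gene with a p (adjusted p 0.0524). Markers of macrophages did not move as one: of 8 listed, Cd68 passed on the side of Ythdf2 at 0.40 ± 0.11, and Itgam and Lyz2 passed on the other at −0.55 ± 0.11 and −1.49 ± 0.33 in the authors' deposited table. The 8 macrophage markers had mean counts of 2991 to 204979. Of 8 markers of M1 activation 6 were tested. Cxcl10 passed on the side of Ythdf2 at 0.55 ± 0.13 in the authors' deposited table, and 0 passed on the other. Of 6 fibroblast markers, with mean counts of 3.08 to 580, 4 were tested. Col1a1 passed narrowly at 0.56 ± 0.17 (adjusted p 0.0491 by the authors' Wald test). Col1a2 at 0.46 ± 0.17, Dcn at 0.36 ± 0.27 and Col3a1 at −0.20 ± 0.27 did not pass in the authors' deposited table. The part of these markers in the Gpnmb result was not tested. In bulk RNA, a change in the share of a cell type and a change of RNA per cell cannot be told apart.

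None of the 14 hydrolases passed. Cathepsin K, Ctsk, a protease known from bone-resorbing osteoclasts, had 0.55 ± 0.20 (adjusted p 0.148) and a mean count of 708 per the authors' deposited table. In the authors' deposited table the acid lipase Lipa, which releases cholesterol from its esters, had 0.33 ± 0.12 with an adjusted p of 0.166. Gla, the α-galactosidase missing in Fabry disease, had 0.33 ± 0.13 with an adjusted p of 0.258 in that table. These 3 had 95% intervals above 0 before adjustment over all genes. Of 8 osteoclast markers 4 were tested, and 1 of these was positive. Itgb3 passed at 1.15 ± 0.31 in the authors' deposited table, while Mmp9 was at −0.996 ± 0.889, Acp5 at −0.63 ± 0.38 and Nfatc1 at −0.03 ± 0.14. Calcr had a mean count of 0.906. The 8 mean counts summed to 3866, and their part in the Ctsk value was not tested.

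The other hydrolases lay on both sides of 0. Ctsb, Ctsz, Ctsd and Ctsh, all proteases, spanned 0.13 to 0.21 per the authors' deposited table, with standard errors of 0.11 to 0.12. Ctsa, the carboxypeptidase that also protects Neu1, was at 0.03 ± 0.11, and the sialidase Neu1 at 0.23 ± 0.14, in the authors' deposited table. On the opposite side of 0 were Ctsc, which activates proteases of granules, at −0.20 ± 0.15, and 3 enzymes that cut sugars from glycans and glycolipids. Those were Man2b1 at −0.21 ± 0.11, Hexa at −0.20 ± 0.11 and Gusb at −0.14 ± 0.12 in the authors' deposited table.

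Ctsl, cathepsin L, had the lowest value of the list and by far its widest error, which the authors' deposited table gives as −0.60 ± 0.55 (95% interval −1.68 to 0.48). Its mean count was 94013, and among the 402 tested genes with a mean count of at least 10000 its standard error was the second highest, against a median of 0.12. Which libraries lie behind this error cannot be read from a table without values per library. Its interval holds a 1.5-fold change toward negative values, but not one toward positive values.

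**Figure D2:**
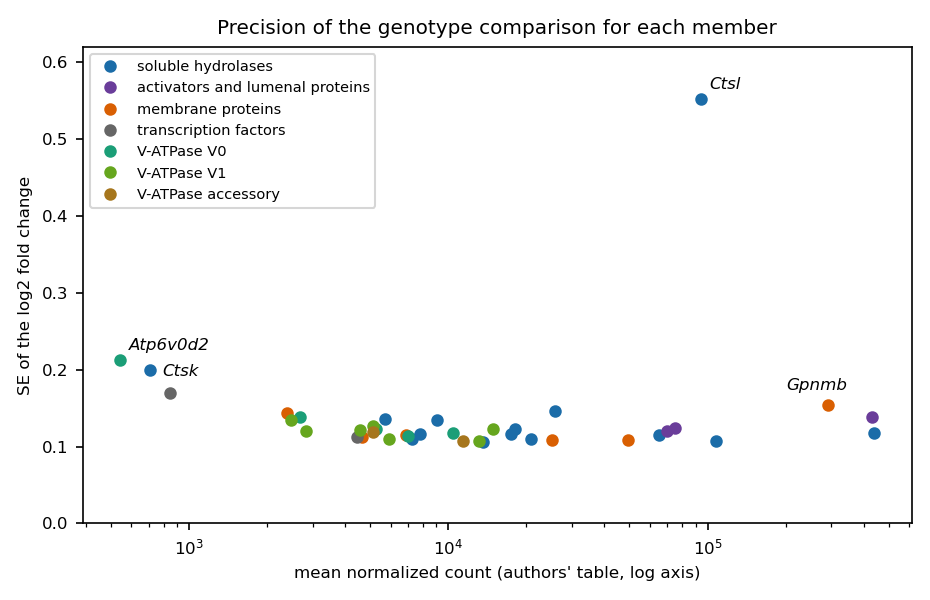
Standard error of the log2 fold change (y axis) against mean normalized count (x axis, log scale) for each of the 39 genes, coloured by role, from the authors' deposited table. Ctsl stands apart at 0.55, while the others lie between 0.11 and 0.21; counts are not divided by transcript length, so the x axis is not an order of abundance between genes.

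The 3 activators and lumenal proteins were all positive and none passed. Psap, the precursor of the saposins that help enzymes reach sphingolipids, had 0.36 ± 0.14 and an adjusted p of 0.205 per the authors' deposited table. Grn, progranulin, a secreted protein that is also cut into granulins in the lysosome, was at 0.21 ± 0.12, and the cholesterol carrier Npc2 at 0.19 ± 0.12, in the authors' deposited table. Npc1, the membrane protein that takes cholesterol over from Npc2, was at 0.09 ± 0.11.

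The other membrane proteins did not pass. Lamp1 and Lamp2, the main glycoproteins of the lysosomal membrane, were at 0.07 ± 0.11 and 0.17 ± 0.11 in the authors' deposited table. The calcium channel Mcoln1 was at 0.10 ± 0.14, and Scarb2, the receptor that brings glucocerebrosidase to the lysosome, at −0.03 ± 0.11, in the same table. The regulators were near 0 as well, with Tfeb at 0.14 ± 0.17 and Tfe3 at −0.01 ± 0.11 in the authors' deposited table. The 6 members with TCACGTGA in the promoter were all positive, with a median of 0.14 and a range of 0.03 to 0.33, and 0 passed. Of the 26 members whose promoter lacked it, 17 were positive, with a median of 0.08. An unadjusted p under 0.05 by the authors' Wald test was reached by 1 of the 6 (16.7%) and 4 of the 26 (15.4%). The difference between these 2 groups was not tested.

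Of the listed subunits, all 5 of V0 and all 7 of V1 had positive values, and 0 of these 12 passed. Positive values made up 60.4% of the most abundant 25% of genes. Of 8 other tested V-ATPase subunits and assembly factors 6 were positive and 2 negative. At an unadjusted p under 0.05 by the authors' Wald test, 3 of these 8 were positive (37.5%) and 0 negative. Over all tested genes these shares were 6.28% and 3.71%. The 1 that passed the adjusted threshold, Atp6v1c1, is given below. Of the 2 negative ones, the V1 subunit Atp6v1g2, named after its value was seen, was at −0.14 ± 0.34 in the authors' deposited table, with a mean count of 99.2. In V0, the subunit d isoform Atp6v0d2, which is typical of osteoclasts and some macrophages, had 0.35 ± 0.21 (adjusted p 0.667) per the authors' deposited table, and its ubiquitous counterpart Atp6v0d1 had 0.03 ± 0.12. Atp6v0d2 had the lowest mean count of the list, 543. Atp6v0c, the main subunit of the rotating proton ring, was at 0.17 ± 0.12, and Atp6v0b of the same ring and the stator subunit Atp6v0a1 were both at 0.08. Some RNA of Atp6v0c may be shared with 2 pseudogenes of it that the table lists, and 13 of the 39 genes overlap another RefSeq gene. The sources used here do not give the counting rule or strand for such reads.

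In V1, the catalytic subunit Atp6v1a was at 0.20 ± 0.12 and its partner in the ATP-splitting ring, Atp6v1b2, at 0.21 ± 0.11, in the authors' deposited table. The rotor subunit Atp6v1d was at 0.19 ± 0.12 and the regulatory subunit Atp6v1h at 0.14 ± 0.12. Atp6v1e1, Atp6v1g1 and Atp6v1f spanned 0.02 to 0.06 there. The 2 accessory proteins, Atp6ap1 and Atp6ap2, which assist assembly of the pump, were the negative ones, at −0.10 ± 0.11 and −0.07 ± 0.12. Of the 14 V-ATPase genes, 13 had a 95% interval that lay wholly within a change of 1.5-fold either way, and Atp6v0d2 was the exception. Over all 39 genes this held for 33 (84.6%), against 63.8% of all tested genes and 88.6% of the most abundant 25%.

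Of the other genes listed for the lysosome and its regulation, 90 were tested. By the authors' Wald test 3 of them passed, all positive (3.33%), against 1.76% of all tested genes and 3.90% of the most abundant 25%. Rragd, a Rag GTPase that ties lysosomal nutrient sensing to mTORC1, had 0.76 ± 0.19 and an adjusted p of 0.00655 per the authors' deposited table. Cd68, a heavily glycosylated lysosomal protein of macrophages, had an adjusted p of 0.0221 in that table. Atp6v1c1, another V1 subunit, had a mean count of 368, a value of 4.39 ± 0.27 and an adjusted p of 4.41e-54 per the authors' deposited table. The lowest values were those of Acp5, the tartrate-resistant phosphatase, at −0.63 ± 0.38, and the sorting receptor Sort1 at −0.46 ± 0.26, neither past the threshold. These 90 genes had a median of 0.05, and 57 of them were positive.

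In WT macrophages every one of the 39 genes had a peak in the list deposited as YTHDF2 peaks, against 64.5% of all tested genes. Peaks were found more often in genes with more reads, and 88.6% of the most abundant 25% had one. That set is not matched to the members by count. The 36 members in it had a median mean count of 10920, against 3641 for the whole set. An m6A peak was listed for 18 of the 39 (46.2%), against 45.4% of all tested genes and 67.8% of the most abundant 25%. All 18 also had a YTHDF2 peak, so 46.2% had both, against 35.8% of all tested genes and 62% of the most abundant 25%. The other 21 genes (53.8%) had a YTHDF2 peak and no listed m6A peak, against 28.6% of all tested genes and 26.6% of the most abundant 25%. Because all 39 had a YTHDF2 peak, these last 2 shares of the members are fixed by their m6A share. In the compared sets they also depend on how many genes lack a YTHDF2 peak, so the contrasts are not a separate result. Each list is 1 list with no replicates, so these shares have no error of their own. All 17843 names in the YTHDF2 list begin with m6a_peak, and whether the list holds peaks of the m6A libraries was not tested.

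**Figure D3:**
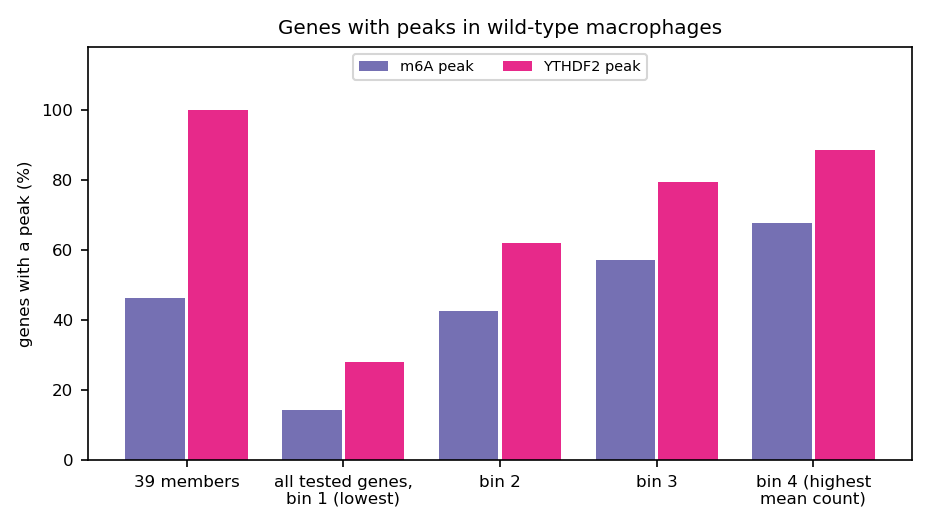
Percentage of genes (y axis) with an m6A peak and with a YTHDF2 peak in WT macrophages, for the 39 genes and for all tested genes in 4 bins of rising mean count. All 39 genes had a YTHDF2 peak, above the 88.6% of the highest bin, while their m6A share of 46.2% was below the 67.8% of that bin. The bins are not matched to the 39 genes by mean count.

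By role, the listed m6A peaks were spread as follows. Of the 14 V-ATPase genes, 4 had an m6A peak (28.6%), and 0 of 5 V0 subunits did. Of the other 25 genes, 14 had one (56%). Among hydrolases it was 8 of 14, and Ctsd, Ctsl, Ctsh, Hexa, Ctsk and Man2b1 had no listed peak. Psap, with a mean count of 429499 in the authors' deposited table, had none either, and carried 11 YTHDF2 peaks, the most of the list. Members with an m6A peak had a median log2 fold change of 0.17 (15 of 18 positive), and those without one 0.08 (15 of 21 positive). Over all tested genes these medians were 0.03 and −0.05, and in the most abundant 25% they were 0.06 and −0.002.

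The 18 genes carried 25 m6A peaks, 13 of them with 1 peak, 3 with 2 and 2, Ctsc and Gpnmb, with 3. Peaks spanned 50 to 4902 bp of genome with a median of 350 bp, introns included. By midpoint, 13 of the 25 lay in the last 25% of the gene's span and 4 in its first 10%. The 4 early peaks were those of Atp6v1e1, Atp6v1g1 and Grn and 1 of Gpnmb. Of the 25 peaks, 13 touched the 3′ UTR as annotated in the YTHDF2 list.

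Of these 25 m6A peaks, 17 (68%) shared at least 1 bp with a YTHDF2 peak, against 49% of all 9347 placed m6A peaks and 55.6% of the 4066 in the most abundant 25%. These shares compare unlike genes, since all 18 members with m6A had a YTHDF2 peak. Of 4891 tested genes with an m6A peak 3861 had one, and 1672 of 1826 in the most abundant 25%. Of the members' 122 YTHDF2 peaks, 15 (12.3%) overlapped an m6A peak. The same share over all YTHDF2 peaks is not given here, so 12.3% cannot be called high or low. With an overlap of at least 50% of the m6A peak required, 11 of the 17 m6A peaks remained. No share of all placed m6A peaks under that rule is given here, so the comparison holds for the 1 bp rule only. In Tfeb (chromosome 17), m6A peaks at 47792001 to 47792075 and 47792101 to 47792150 both fell within the YTHDF2 peak 47791279 to 47792304, with its summit in the 3′ UTR. In Ctsb (chromosome 14), an m6A peak at 63142323 to 63143097 lay inside a YTHDF2 peak at 63142133 to 63143302, also with its summit in the 3′ UTR. Neu1 (chromosome 17) had m6A peaks at 34934871 to 34935370 and 34935446 to 34935870 over 1 YTHDF2 peak in the 3′ UTR. In Gusb (chromosome 5) the m6A peak at 129989186 to 129989585 lay inside the gene's single YTHDF2 peak.

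In other members the overlap was partial or absent. Ctsa, Grn, Atp6v1e1 and Atp6v1g1 had m6A peaks and YTHDF2 peaks with no overlap. In the last 3 the m6A peak lay at the 5′ end of the gene span. The m6A peak of Ctsa, at 164833735 to 164833834, lay over the inner start site used for its promoter windows. In Mcoln1 (chromosome 8) the m6A peak at 3515128 to 3515227 shared 3 bp with the YTHDF2 peak at 3514620 to 3515130. In Gpnmb, m6A peaks at 49036546 to 49036595 and 49047828 to 49048177 touched YTHDF2 peaks with summits in coding sequence. The third m6A peak of Gpnmb overlapped none, and the 2 YTHDF2 peaks in its 3′ UTR, its strongest at 2.35 and 2.24, had no m6A peak.

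**Figure D4:**
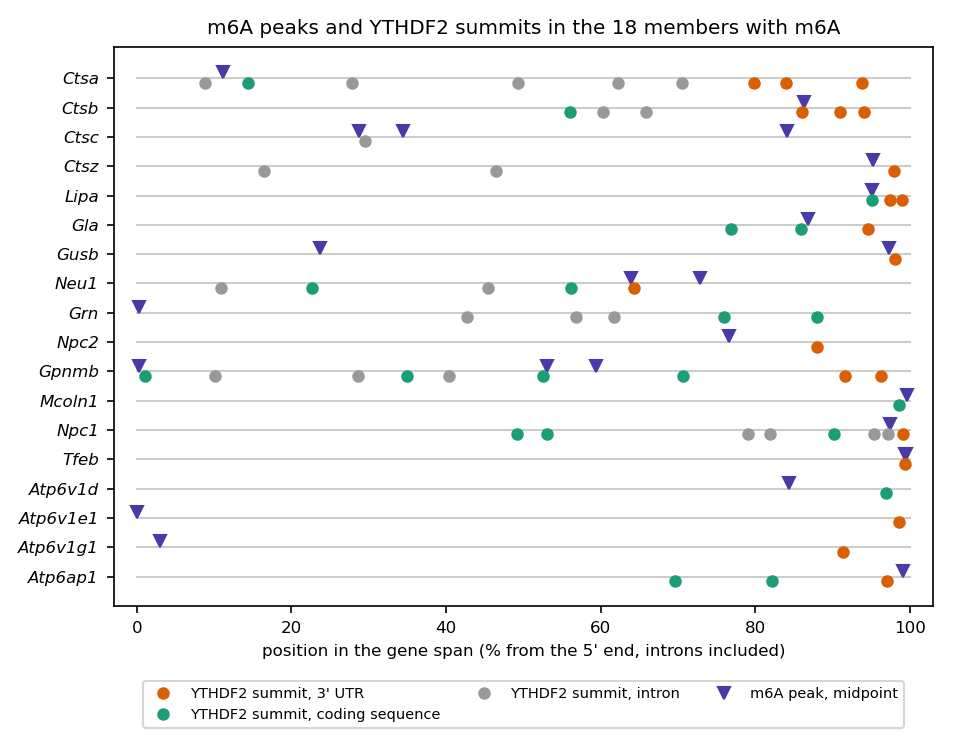
Midpoints of m6A peaks (triangles) and summits of YTHDF2 peaks (circles, coloured by transcript feature) along the gene span, in percent from the 5′ end with introns included (x axis), for the 18 genes with m6A (y axis). Of 25 triangles 13 lie in the last 25% of the span, while Grn, Atp6v1e1, Atp6v1g1 and 1 peak of Gpnmb lie near the 5′ end.

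The 39 genes held 122 of the 17843 YTHDF2 peaks. V-ATPase genes had a median of 1 peak and the other members a median of 3. By the feature under the summit, 45.9% of these peaks were placed in introns, 27.9% in the 3′ UTR, 25.4% in coding sequence and 0.82% in the 5′ UTR. Over all peaks the shares were 23.1%, 39.2%, 35.7% and 2.02%, and in genes of the most abundant 25% introns held 28.5%. Peaks of 1 gene are not independent: Psap alone gave 9 of the 56 intron summits and Ctsa 5, and without these 2 genes the share was 41.2%. Of the 56 peaks with an intron summit, 38 also overlapped an exon of the listed transcript. All summits of Ctsk, Ctsc and Lamp2 were placed in introns. The list annotates nearly every gene by 1 transcript, and exons found only in its other transcripts would be read as intron.

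Among the V-ATPase genes 24% of 25 summits lay in introns and 40% in the 3′ UTR, against 51.5% and 24.7% of 97 in the other members. This difference was not tested.

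Fold enrichment at the summit is the authors' own value and ranks peaks within their list. Peaks of the 39 genes spanned 1.41 to 6.16 with a median of 2.21, and 21 of 122 were above the median of all peaks, 3.01. By each gene's strongest peak, the median was 2.65, against 2.90 in the most abundant 25% and 3.39 over tested genes with a peak. The strongest was that of Atp6v0d2 at 6.16 (chromosome 4, 19878158 to 19878522, summit in coding sequence), above 97.5% of all peaks. Ctsk followed with 4.27 (chromosome 3, 95506411 to 95506627, summit in an intron), then Mcoln1 with 4.19 and Atp6v1h with 3.89. Atp6v0d2 and Ctsk were also the 2 members with the lowest mean counts.

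At the low end were Ctsh at 1.84, Ctsz at 1.90 and Lipa at 1.94, none of which reached 2-fold. With a fold enrichment of at least 3 required, 14 of the 39 genes kept a peak (35.9%), below the 41.3% of all tested genes and the 40.3% of the most abundant 25%. At 2 or more it was 36 of 39 (92.3%), against 61.7% and 80.9%. The strongest peaks of Atp6ap1 and Atp6v0a1, at 3.62 and 3.60, and of Hexa at 3.45, overlapped no m6A peak. Those of Mcoln1 at 4.19, Npc1 at 3.52 and Tfeb at 3.17 did overlap m6A peaks, in Mcoln1 by 3 bp.

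**Figure D5:**
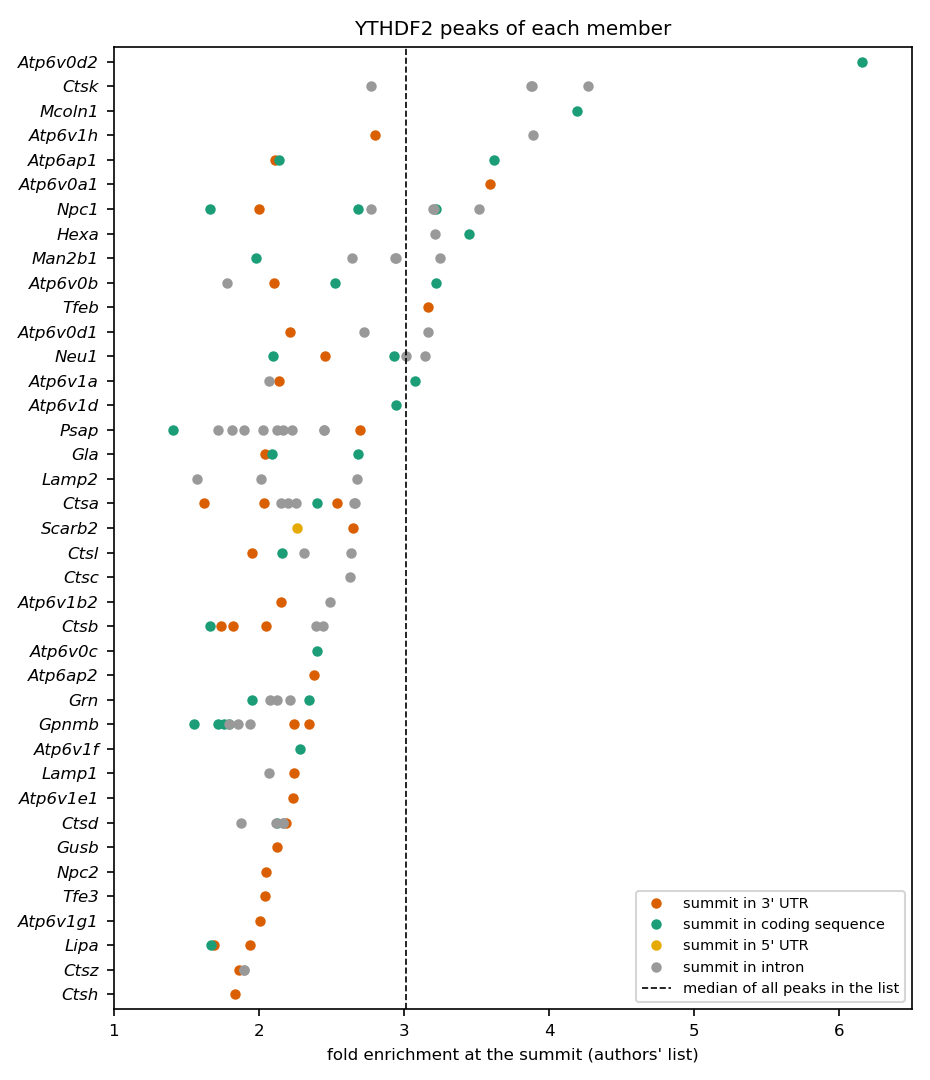
Fold enrichment at the summit (x axis) of each YTHDF2 peak of the 39 genes (y axis, ordered by their strongest peak), coloured by the feature under the summit. The dashed line is the median of all peaks, 3.01; by strongest peak, Atp6v0d2 is highest at 6.16 and Ctsh lowest at 1.84.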

How the data were processed

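The members, gene lists and tests were chosen with earlier results of these data known. None of the deposited files used here held values per library, so the depth of each library is unknown and the planned count test gave way to a description of the authors' comparison. Per the file headers, the expression table has the column names of DESeq2 results. By its column name, the mean normalized count (a signal) was averaged over libraries by the authors. The log2 fold change, its standard error, the Wald statistic (a score) and the p-values were deposited by the authors, and each call is theirs (adjusted p under 0.05, over 10778 genes). The fold enrichment, a ratio, the −log10 q and the score of YTHDF2 peaks were deposited by the authors in narrow-peak order. The m6A list, named for exomePeak2 by its file, gives positions only. HISAT2, HOMER, ChIPseeker and mm10 come from the submitters' processing notes, which state neither their roles nor versions. For the YTHDF2 list the peak caller is not given.

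Repeated rows of the YTHDF2 list (3234 of 45541) were dropped. Symbols were joined directly or through RefSeq synonyms (GRCm38.p6, the coordinates of mm10), and m6A peaks were placed within 1000 bp of their gene. Positions are given 1-based, with starts in the deposited lists read as 0-based. Where a summit lay in several listed features, the 3′ UTR came before coding sequence, 5′ UTR and intron. Intervals are the fold change ± the normal 95% bound of its standard error. Reference sequences come from RefSeq. Scripts ran in Python 3.11.15 with pandas 2.3.3 and scipy 1.17.1 and were tested on simulated data. All 39 members may be named. Of other lysosome genes, those that passed and the extreme values on each side may be named. Atp6v1g2 was named outside this rule.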

Additional observations from a re-analysis of the deposited data

How the results depend on the processing

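No paired analysis was possible because the deposited table holds no value per library, and for the same reason no replicate could be left out and neither edgeR nor DESeq2 could be run. The count of 1 called member became 0 with no filter on low counts and 0 with at least 1.5-fold required as well (Gpnmb, at 0.55, lies just under that fold); it was 1 with the other settings tried. With no filter, Gpnmb had an adjusted p of 0.0524; after centring on the median of the most abundant 25% it had 0.0451. That centring left a median of 0.09 and 26 positive members in place of 0.13 and 30. Members with a YTHDF2 peak became 14 at a fold enrichment of at least 3. Overlapping m6A peaks became 11 when at least 50% of the m6A peak had to be covered; the smaller count follows from the stricter rule. Members with a YTHDF2 peak and no m6A peak numbered 20 to 24 in place of 21 under settings chosen after seeing the data. Other alternatives stayed within 1.5 times the count, or within the binomial interval of the share. The numerator of the fold change, depth per library and the list's peak names limit every reading.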
